A study of Mus musculus with 4 samples.

Results

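The chemokine genes Cxcl1, Cxcl2, Cxcl3, Cxcl5, Cxcl12, Ccl2, Ccl7, Ccl8, Ccl20 and Cx3cl1 were described in GC-1 cells, a mouse spermatogonial line, after transfection with an Hdac6 vector or with the empty vector. The 10 genes carry 12 of the 56605 probes on the array, out of 37008 gene or other names. They were chosen by name, as attractants of neutrophils and monocytes, after the differences in this same comparison of vectors were known. Their difference between the vectors is therefore given as a description. Standard errors, intervals and counts of passing probes come from the fit over all tested probes and make no allowance for this choice.

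Both groups were GC-1 cells harvested 48 h after plasmid transfection, so all 4 samples share the transfection itself. In the Hdac6 vector group (2 arrays) the plasmid held murine Hdac6, the gene of a cytoplasmic deacetylase of tubulin, with the myc/DDK tag and a CMV promoter. In the empty vector group (2 arrays) the plasmid held no insert. Each sample was hybridised to 1 one-colour Agilent array. Higher Hdac6 RNA was not seen with the Hdac6 vector: the array's 1 Hdac6 probe read 3.31 and 2.83 for the empty vector, against 2.62 and 3.24 for the Hdac6 vector (0.908-fold, 95% interval 0.578-fold to 1.43-fold). That probe starts at base 4081 of the transcript and holds the polyadenylation signal AATAAA, and the sources used here do not say whether the insert includes this stretch, so the groups are those of the labels, unchecked. The labels do not say whether replicates came from separate cultures, so the spread between them may be technical. Levels are log2 processed signal minus the array's 75th percentile. A level of one probe is not compared with that of another, except to pick a gene's probe or the genes to name. The sums over marker lists also add levels of different probes.

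Chemokines are small secreted proteins that direct migrating cells through G protein-coupled receptors. CXC chemokines with an ELR motif, here the products of Cxcl1, Cxcl2, Cxcl3 and Cxcl5, act on the receptor CXCR2 and attract neutrophils. The products of Ccl2 and Ccl7 attract monocytes, largely through CCR2, that of mouse Ccl8 acts on CCR8, that of Ccl20 acts on CCR6, that of Cx3cl1 on CX3CR1, and that of Cxcl12 on CXCR4. Several of these genes are classical targets of NF-kB, and their messenger RNAs are often short-lived through AU-rich elements. In the testis CXCL12 is known as a niche signal of spermatogonial stem cells.

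Promoter sequence is shown because the members include paralogs with a shared NF-kB motif that differed in whether they could be measured. RefSeq's promoter table (GRCm38.p6) held 7 of the 10 genes, namely Cxcl1, Cxcl2, Cxcl3, Cxcl12, Ccl8, Ccl20 and Cx3cl1. In the 250 bases before the start, on both strands, an NF-kB motif (3 G, any 3 bases, then TTCC) was found in 4 of these 7, against 4.65% of the 32851 windows of that length in the table. The 4 were Cxcl1, Cxcl2, Cxcl3 and Ccl20. The lines give the last 110 bases before the start, 5′ to 3′, with the motif's matches in capitals.

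Cxcl1 (chr5:90891135-90891244, plus strand): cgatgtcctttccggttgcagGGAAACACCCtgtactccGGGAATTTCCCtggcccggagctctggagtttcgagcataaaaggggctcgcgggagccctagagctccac
Cxcl2 (chr5:90903789-90903898, plus strand): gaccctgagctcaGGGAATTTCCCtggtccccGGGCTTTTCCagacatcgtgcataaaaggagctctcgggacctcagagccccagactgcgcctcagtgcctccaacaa
Cxcl3 (chr5:90785991-90786100, plus strand): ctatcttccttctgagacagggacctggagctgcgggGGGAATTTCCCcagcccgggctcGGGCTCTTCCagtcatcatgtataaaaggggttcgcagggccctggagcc
Ccl20 (chr1:83116656-83116765, plus strand): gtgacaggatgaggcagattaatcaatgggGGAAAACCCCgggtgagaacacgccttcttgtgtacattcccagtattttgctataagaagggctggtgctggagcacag
Cxcl12 (chr6:117168425-117168534, plus strand): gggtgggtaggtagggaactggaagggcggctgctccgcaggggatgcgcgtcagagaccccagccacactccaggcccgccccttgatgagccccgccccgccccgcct

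Cxcl1, Cxcl2 and Cxcl3 each held 2 separate matches, and the 11-base run GGGAATTTCCC, in which a match on each strand overlaps, stood in all 3. In Cxcl1 and Cxcl2 the shared run extended to 14 bases, GGGAATTTCCCTGG. Ccl20 held 1 match and Cxcl12, printed for contrast, none. The AP-1 motif TGANTCA (6.75% of windows) and the C/EBP motif TTGCNNAA (9.56% of windows) had no match in any of the 7. TATAAA (12.4% of windows) was found in Cxcl3, Ccl8 and Cx3cl1. A match is a string of letters in a window, and binding was not measured.

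Cxcl1 and Cxcl5, the neutrophil attractants that were measurable, were higher on both Hdac6 vector arrays, while Cxcl2 and Cxcl3, which carry the same promoter run as Cxcl1, were not well above background on any array. The Cxcl1 probe (chromosome 5, 91322080 to 91322139, mm9) gave 2.24 and 3.01 on the empty vector arrays and 3.96 and 4.43 on the Hdac6 vector arrays. The groups did not overlap, and the lower Hdac6 vector array stood 0.95 (log2) above the higher empty vector array. As group means this was 2.97-fold (log2 1.57, SE 0.31, 95% interval 1.83-fold to 4.81-fold, n = 2 per group). In RNA from a whole culture, fewer cells expressing a gene and less RNA per cell cannot be told apart, here or in any value that follows.

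Cxcl5, whose product is an epithelial-type neutrophil attractant, had close replicates. Its probe (chromosome 5, 91190490 to 91190549, mm9) gave 2.32 and 2.14 on the empty vector arrays, against 3.57 and 3.77 on the Hdac6 vector arrays. Replicates differed by 0.19 and 0.20 (log2), while the group means differed by 1.44 (SE 0.23), or 2.71-fold (95% interval 1.88-fold to 3.90-fold). In processed signal the 4 spots read 3336, 3046, 9655 and 6179 in the same order, before scaling. The last of these lay on the dimmest array, whose 75th percentile was 453.1 against 665.9 to 815 on the others.

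The Cxcl2 probe (chromosome 5, 91334534 to 91334593, mm9) had a mean spot signal of 25, 25.6, 26.5 and 26.5 against a local background of 28, 28, 30 and 27. That of Cxcl3 (91216694 to 91216753) read 23, 23.8, 29.2 and 25.7 against 26, 25, 26 and 23. Both genes thus have no measured level here, and no fold is given. Relative to the lowest signal called well above background on the same array their scaled values were at -2.32 to -2.05 (log2), so they carry no order. A transcript below the array's detection is not shown to be absent.

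**Figure D1:**
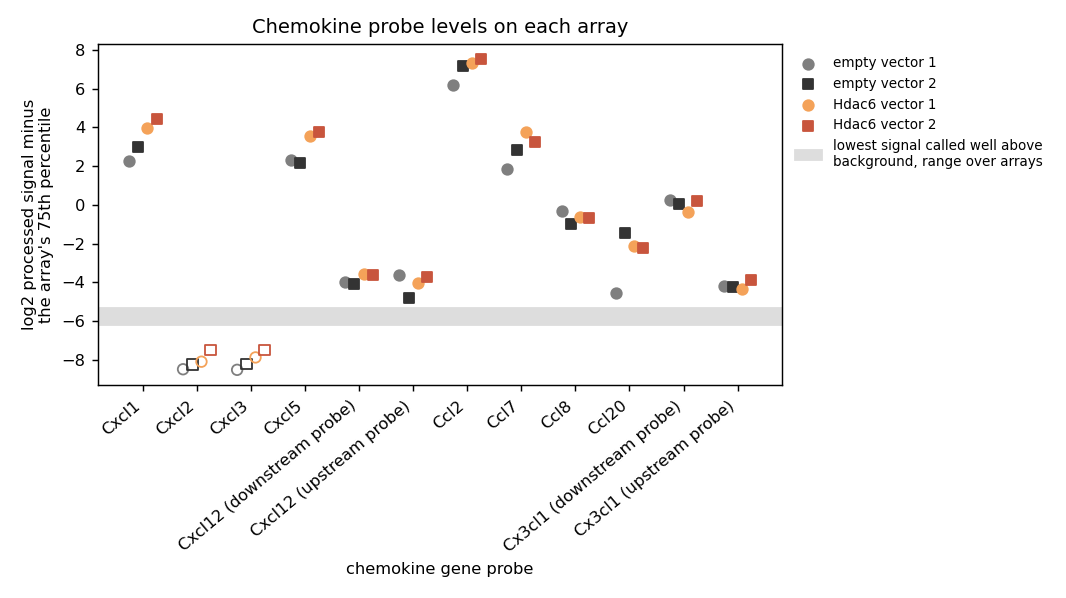
Levels of the 12 chemokine probes on each of the 4 arrays (log2 processed signal minus the array's 75th percentile), with open symbols for probes not well above background on any array and a grey band from -6.19 to -5.33 for the lowest signal so called on the 4 arrays. Both Hdac6 vector arrays lie above both empty vector arrays for Cxcl1, Cxcl5, Ccl2, Ccl7 and the downstream Cxcl12 probe, and empty vector 1 lies alone at -4.55 for Ccl20. Heights are compared within a probe, not between probes.

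Among the CC genes of chromosome 11, Ccl7 and Ccl2 were higher on both Hdac6 vector arrays and Ccl8 was not. Ccl7 (chromosome 11, 81860656 to 81860715, mm9) gave 1.84 and 2.84 for the empty vector, against 3.74 and 3.26. The groups did not overlap, but the empty vector arrays differed from each other by 1.00 (log2), nearly as much as the group means, which differed by 1.16 (SE 0.34, 2.24-fold, 95% interval 1.31-fold to 3.84-fold). Without empty vector 1 the log2 difference was 0.66.

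Ccl2 encodes the main CCR2 ligand. Its probe (chromosome 11, 81850650 to 81850709, mm9) read 6.17 and 7.18 for the empty vector, against 7.31 and 7.5. Its processed signal was 47905, 100226, 129306 and 82061, and no spot was saturated. Empty vector 1 was the low array. Empty vector 2 lay 0.13 below Hdac6 vector 1, and the group means differed by 0.73 (SE 0.34, 95% interval -0.04 to 1.51), or 1.66-fold. Without empty vector 1 the difference was 0.23, and without empty vector 2 it was 1.24.

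Ccl8 read -0.30 and -1 for the empty vector, against -0.65 and -0.66 (chromosome 11, 81930108 to 81930167, mm9). The Hdac6 vector arrays fell between the empty vector arrays. The log2 difference was 0.00 (SE 0.31, 95% interval -0.69 to 0.69), which leaves room for a change of up to 1.62-fold in either direction.

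Ccl20, which attracts CCR6-bearing dendritic cells and lymphocytes, differed more between the replicates of one group than between the groups. Its probe (chromosome 1, 83115500 to 83115559, mm9) gave -4.55 and -1.44 for the empty vector, against -2.13 and -2.22. Empty vector 2 was 8.63-fold above empty vector 1, a gap reached by 14 of 32601 probes well above background on all arrays (0.0429%). The Hdac6 vector arrays differed by 0.10 (log2) and lay between the empty vector arrays. The group difference of 0.82 (SE 0.79, 95% interval -0.97 to 2.61) was -0.73 without empty vector 1 and 2.37 without empty vector 2. On empty vector 1 the Ccl20 spot read 28.4 in processed signal with a scanner error of 3.4 and was called well above background, so the low value is a measured one.

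Cx3cl1, which encodes the membrane-bound chemokine fractalkine, was measured by a pair of probes. The downstream probe (chromosome 8, 97306185 to 97306244, mm9) gave 0.23 and 0.06 for the empty vector, against -0.39 and 0.21, and the groups overlapped. Its log2 difference was -0.23 (SE 0.29, 95% interval -0.88 to 0.42), and it was 0.07 without Hdac6 vector 1. The upstream probe, whose 60 bases are spread over 97296213 to 97301245 and so cross a splice junction, gave -4.21, -4.26, -4.36 and -3.89 (difference 0.11, SE 0.34). Neither probe separated the vectors.

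Cxcl12 was likewise read by probes at different places, listed for different RefSeq transcripts. The downstream probe (chromosome 6, 117131227 to 117131286, mm9) read -3.96 and -4.06 for the empty vector, against -3.59 and -3.60. These groups did not overlap, and the difference was 0.41 (SE 0.32, 95% interval -0.31 to 1.14), or 1.33-fold. The fit shares the spread over probes of like signal, and the processed signals here were 42.8, 41.6, 67.7 and 37.4. The upstream probe (117125026 to 117125085) read -3.61 and -4.78 against -4.01 and -3.70 and did not separate the groups (difference 0.34, SE 0.43). Here empty vector 1 was the high array.

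**Figure D2:**
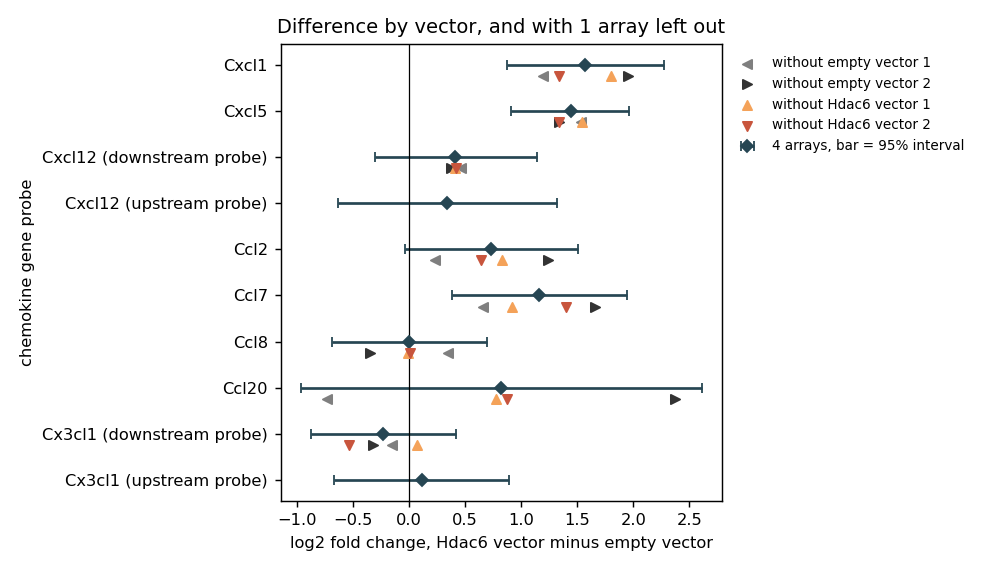
Log2 fold change of the 10 tested chemokine probes, Hdac6 vector minus empty vector, with 95% intervals of the fit (diamonds), and the same with each array left out in turn (triangles, for the probe that stands for its gene). Cxcl1 and Cxcl5 stay between 1.19 and 1.95 whichever array is left out, while Ccl20 runs from -0.73 to 2.37.

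The AU-rich pentamer ATTTA, the core of elements that destabilise cytokine messages, stood in 4 of the 12 probes, against 8.08% of all probes. These stretches of 25 bases, 5′ to 3′ with the pentamer in capitals, show where it lies in the probes. Whether it is part of a working element there was not tested.

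Cxcl2 probe: ttttaaacctATTTAttcattagtt
Cxcl5 probe: gctgagatATTTAgatgtctgtagt
Cxcl12 upstream probe: gtatgtgggaATTTATTTAcctgaa
Ccl20 probe: atgtttagctATTTAatgttaattt

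The 4 probes behaved differently: that of Cxcl5 separated the vectors, those of Cxcl12 and Ccl20 did not, and that of Cxcl2 was not well above background. The polyadenylation signal AATAAA lay in the Cxcl1 probe and the upstream Cxcl12 probe (9.77% of all probes). No member probe shared a run longer than 15 bases with a probe of another gene, so the 60-base probes of the paralogs Cxcl1, Cxcl2, Cxcl3 and Cxcl5 are distinct from each other by this measure. Cross-hybridisation to transcripts was not tested.

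Of the 12 probes, 10 were tested, each well above background on all 4 arrays. In the limma fit over all tested probes, 0 of these 10 had an adjusted p under 0.05, against 4 of 35214 (0.0114%), and 3 had an unadjusted p under 0.05, against 1.84%. With normexp background correction 3 passed, Cxcl1, Cxcl5 and Ccl7, among 32 passing probes. With an empty vector array left out, that group has a lone array, so only differences are given here. Without empty vector 1 the log2 difference was 1.19 for Cxcl1, 1.53 for Cxcl5, 0.66 for Ccl7 and -0.73 for Ccl20. Without empty vector 2 it was 1.95, 1.34, 1.66 and 2.37 in the same order. Both Hdac6 vector arrays lay above both empty vector arrays for 5 of the 10, against 13.1% of all tested probes, and below for 0 of the 10, against 12%. Over the 8 genes, taken by their brightest tested probe, the median log2 fold change was 0.78, beside 0.00 over all tested genes. The genes were chosen with this comparison known, so these counts describe the choice and are read no further.

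The spread between replicates is given as a description too, since the members were chosen on these same arrays. Empty vector 1 and empty vector 2 differed by at least 2-fold at 4 of the 10 tested member probes, against 5.9% of 32601 probes well above background on all arrays. These were Ccl20, Ccl2 and Ccl7, all lower on empty vector 1, and the upstream Cxcl12 probe, higher there. Cxcl1 was lower on empty vector 1 too, by 0.77 (log2), a gap that 3751 of the 32601 probes reached. Hdac6 vector 1 and Hdac6 vector 2 differed by at least 2-fold at 0 of the 10, against 4.66% of probes. The largest gaps there were 0.61 for the downstream Cx3cl1 probe and 0.48 for Ccl7.

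Hdac6 vector 1 and empty vector 2 were the closest pair of arrays, only 0.601% of probes differing by 2-fold or more. Of the 10 member probes 1 did so, Cxcl5, at 2.69-fold. Cxcl1 stood at 1.94-fold and Ccl7 at 1.86-fold between these arrays, whereas Ccl2 stood at 1.1-fold. Ccl20 was lower on Hdac6 vector 1 here, at 0.622-fold. In this closest pair Cxcl5, Cxcl1 and Ccl7 were higher on the Hdac6 vector array by more than Ccl2 was. The pair was picked after seeing the data and sets a single array against a single array. Its values are a description, for members chosen on these same arrays.

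**Figure D3:**
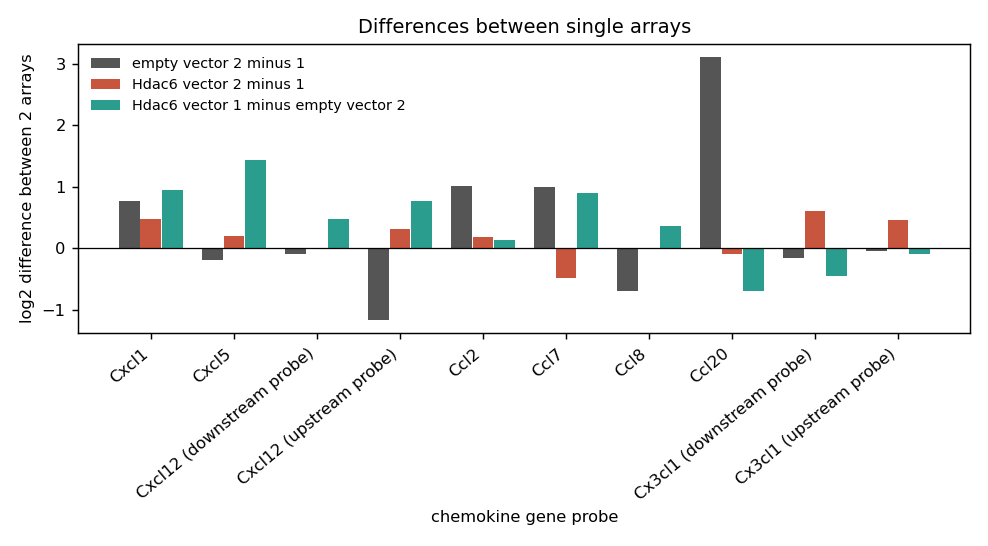
Log2 differences between single arrays for the 10 tested chemokine probes, for replicates of the empty vector (grey), replicates of the Hdac6 vector (red), and Hdac6 vector 1 minus empty vector 2, the closest pair of arrays (green). The gap of 3.11 between the empty vector arrays at Ccl20 exceeds every vector difference, whereas Cxcl5 has replicate gaps of -0.19 and 0.20 beside a difference of 1.43.

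Cxcl1, Cxcl2, Cxcl3 and Cxcl5 lie in one cluster on chromosome 5, and Ccl2, Ccl7 and Ccl8 in one on chromosome 11. Within 150 kb of the Cxcl1 probe, the other CXC genes well above background were Ppbp, Pf4 and Cxcl15. Pf4, which encodes platelet factor 4, read -5.79 and -4.86 against -3.91 and -4.31 (2.32-fold, 95% interval of the log2 difference 0.29 to 2.14, limma adjusted p = 1.00), near the array's detection limit. Ppbp, the gene of another platelet chemokine, stood at 1.38-fold and Cxcl15, that of a lung chemokine, at 1.42-fold, and neither passed (adjusted p = 1.00 for Ppbp). Past Cxcl1 and Cxcl2, Mthfd2l, a gene of mitochondrial folate metabolism, stood at 1.5-fold by 1 probe and at 1.13-fold and 0.969-fold by others.

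In the chromosome 11 cluster the higher values were at adjacent genes, Ccl2 and, 10.0 kb away, Ccl7. Ccl11, which encodes the eosinophil attractant eotaxin, was well above background on 2 arrays and not tested, and Ccl12 on none. Ccl8, 79.5 kb from Ccl2, stood at 1.00-fold, and Ccl1, 140 kb away, at 0.957-fold by its tested probe.

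**Figure D4:**
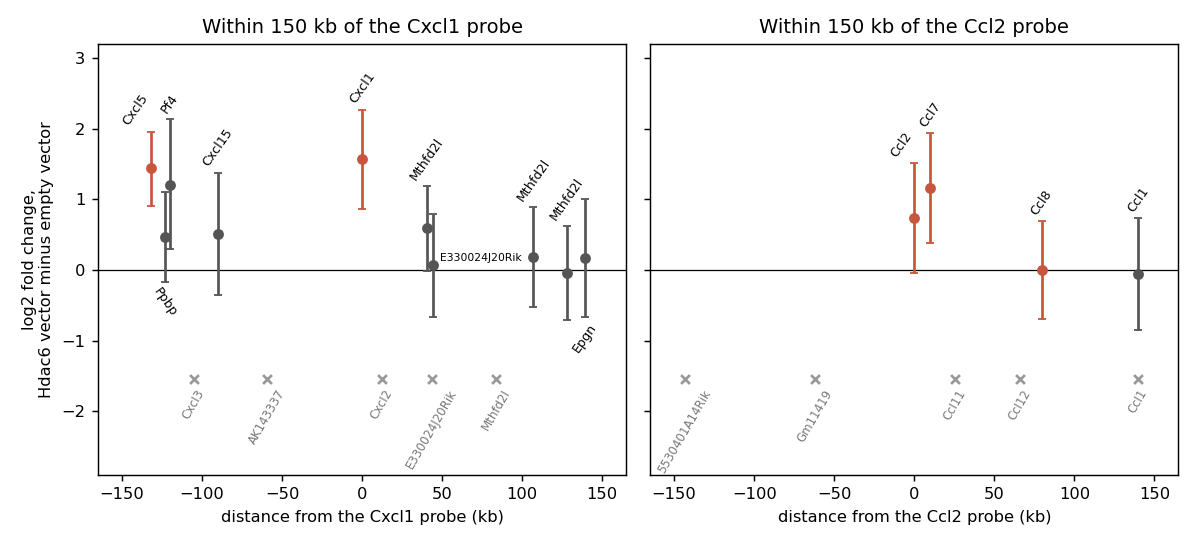
Log2 fold change (Hdac6 vector minus empty vector, bars for 95% intervals) of every probe within 150 kb of the Cxcl1 probe (left) and of the Ccl2 probe (right), against distance in kb, members in red and other genes in grey. Crosses mark probes that were not tested. On the left Cxcl5 (1.44), Pf4 (1.21) and Cxcl1 (1.57) are the highest, and on the right Ccl2 (0.73) and Ccl7 (1.16).

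Receptors for most of these ligands were not measurable in the same cells. The probes of Cxcr2, Ccr2, Ccr6 and Cx3cr1, the receptors for the products of Cxcl1, Ccl2, Ccl20 and Cx3cl1, were not well above background on any array. Both receptors of CXCL12 were: Cxcr4 read -1.95 and -2.26 against -2.46 and -2.11 (0.882-fold), and Ackr3, a scavenging receptor, 1.19 and 1.30 against 1.14 and 1.89 (1.20-fold). Ccr8, the receptor for the mouse Ccl8 product, read -4.86 and -4.45 against -4.51 and -4.01 (1.32-fold). Ccr7, a receptor of lymph node homing, stood at 0.964-fold, Ccrl2, an atypical receptor, at 0.911-fold, and Ccr10, a receptor of skin-homing lymphocytes, at 1.51-fold. Ackr2, a decoy receptor that takes up inflammatory CC chemokines, read -1.75 and -0.62 against -0.48 and 0.07 (1.97-fold, SE 0.39 in log2, limma adjusted p = 1.00). Ackr4 was lower, at 0.429-fold (adjusted p = 1.00), and was well above background on 3 arrays. Of 23 receptor genes 11 were tested, 7 higher and 4 lower (median 0.27 in log2). In limma 0 had an adjusted p under 0.05 and 2 an unadjusted p under 0.05, the latter against 434 of 23473 tested genes.

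Of 28 other chemokine ligand genes 16 were tested, 8 higher and 8 lower, with a median of 0.02 in log2. In limma 0 passed and 1, Pf4, had an unadjusted p under 0.05, the latter against 434 of 23473 tested genes. The interferon-inducible lymphocyte attractants Cxcl10 and Cxcl11 stood at 1.37-fold and 1.03-fold, and Ccl5, another attractant of lymphocytes and monocytes, at 1.06-fold (adjusted p = 1.00 for each). Cxcl16, a transmembrane chemokine gene, stood at 0.992-fold, Ccl25, a gut and thymus chemokine gene, at 0.984-fold, and Ccl17, that of a CCR4 ligand, at 1.47-fold. Cxcl10 repeated the low value of empty vector 1, with 6.15 and 7.13 against 6.89 and 7.29. So did Cxcl17, a mucosal chemokine, with -2.42 and -0.62 against -0.95 and -0.96. For Cxcl10, Cxcl17 and Ackr2, leaving out empty vector 2 sets the low array, empty vector 1, alone against the Hdac6 vector arrays.

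Of 21 genes that induce chemokines or act on the decay of their messages 18 were tested, 8 higher and 10 lower. Their log2 fold changes ran from -0.18 to 0.37. In limma 0 passed and 0 had an unadjusted p under 0.05, the latter against 434 of 23473 tested genes. Rela, the NF-kB subunit gene, stood at 0.945-fold, Nfkbia and Tnfaip3, its feedback inhibitors, at 1.03-fold and 1.1-fold, and Zfp36l1, an AU-rich element decay factor, at 0.880-fold. Elavl1, which encodes an AU-rich element binding protein that stabilises messages, stood at 0.921-fold, and Tnfrsf1a, a TNF receptor gene, at 0.925-fold. Tlr2, a sensor of bacterial lipoproteins, stood at 1.29-fold and read 1.29 and 2.16 against 1.98 and 2.21. Il6 stood at 0.893-fold and read -1.72 and -0.53 against -1.23 and -1.35. Both were lowest on empty vector 1, as were Nfkbia and Tnfaip3, whereas Rela and Zfp36l1 were highest there. The cytokine genes Il1a, Il1b and Il17a were not well above background on any array.

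Over the 4 arrays, each profile centred on its own mean, the gene symbols closest to Cxcl1 among 15605 tested were Aoc1, Cfb, Fam180a, Lcn2 and Fmo2, with root mean square differences of 0.195 to 0.314 (log2). Cfb, which encodes complement factor B, read 0.19 and 1.44 against 2.04 and 2.33. Lcn2, which encodes an iron-siderophore binding protein, read -2.19 and -1.70 against -0.70 and -0.73. No symbol (0) lay within 0.1 of Cxcl1, whereas 148 lay within 0.1 of Cxcl12, the closest being Cd55 at 0.009, then Cdcp3, Pam, Wdr74 and Olfr522 at 0.02 to 0.025. With 4 arrays this measure ranks genes and tests nothing.

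The arrays had 61.0% to 66.4% of spots well above background. Of 13 germ cell markers 6 were well above background on all arrays, while Dazl, Kit and Dppa4 were so on none and Ddx4 on 2. The Sertoli cell marker Wt1 and the fibroblast markers Col1a1, Col1a2 and Dcn were well above background on every array. The Sertoli cell markers Amh and Cldn11, the Leydig cell marker Hsd3b1 and the fibroblast marker Thy1 were so on none, and Fshr on 2. Of the 6 Sertoli cell markers 3 were so on all arrays. Of 16 leukocyte markers 14 were so on all arrays and the macrophage marker Adgre1 and Tyrobp on none. A marker gene is counted by its best probe, so these counts are not on the same footing as the share of spots. In the limma fit 0 genes of the 5 marker lists had an adjusted p under 0.05. By the brightest probe, 2 of 14 tested leukocyte markers and 1 of 7 peritubular and fibroblast markers had an unadjusted p under 0.05. Over all tested genes this held for 434 of 23473. The summed leukocyte signal, in units of each array's 75th percentile, was 86.0 to 101 with the empty vector and 75.2 to 86.2 with the Hdac6 vector. For the 8 peritubular and fibroblast markers, 7 of them well above background on all arrays, the sum was 417 and 500 against 488 and 526. For the germ cell markers it was 23.9 and 11.2 against 13.3 and 16.5, for the 6 Sertoli cell markers 147 and 117 against 105 and 141, and for the Leydig cell markers 0.255 and 0.283 against 0.271 and 0.352. Each sum adds all probes of its list on a linear scale, dim ones included, so the brightest probes dominate it. In the leukocyte sum the brightest probes were those of Csf3r (5.78 and 5.79 against 5.83 and 5.58) and Cd68 (4.51 and 3.53 against 3.32 and 2.88). The germ cell sum follows Uchl1 (4.53 and 3.39 against 3.65 and 3.96). The Sertoli cell sum follows Wt1 (7.09 and 6.75 against 6.58 and 7.02). The sums do not measure amounts of a cell type. Of the 14 tested leukocyte markers 6 were higher and 8 lower (median -0.04 in log2). Those at the highest levels were Csf3r at 0.945-fold, Cd68 at 0.529-fold, Cd14 at 0.987-fold, Ptprc at 0.956-fold, Itgam at 1.09-fold and Cd3e at 0.831-fold. The largest differences were those of Cd68, a macrophage lysosome marker, and of the neutrophil markers S100a9 at 0.479-fold and S100a8 at 0.707-fold (limma adjusted p = 1.00 for each).

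Of the 8 tested germ cell markers 3 were higher and 5 lower, with a median of -0.21. Uchl1, Nanos3, Sall4, Id4, Zbtb16, Gfra1, Ddx4 and Sohlh1 stood between 0.533-fold (Ddx4) and 1.30-fold (Sohlh1). Of 4 tested Sertoli cell markers, 0 were higher: Wt1 stood at 0.921-fold, Gata4 at 0.876-fold, Sox9 at 0.688-fold and Fshr at 0.845-fold. Of 3 tested Leydig cell markers, Cyp17a1 stood at 1.22-fold, Star at 0.724-fold and Cyp11a1 at 0.865-fold. Of 7 tested peritubular and fibroblast markers 5 were higher and 2 lower, with a median of 0.08. Among them Col1a1 stood at 1.06-fold, Dcn at 1.19-fold, Col1a2 at 1.1-fold, Acta2 at 1.48-fold, Pdgfra at 0.889-fold and Cnn1 at 0.666-fold. The part of these cell types in the chemokine values was not tested.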

How the data were processed

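RNA of 4 GC-1 samples was copied from an oligo-dT primer, labelled with Cy3 and hybridised to Agilent mouse arrays, per the labels' protocols. Per the file headers, spot intensity was extracted with Feature Extraction 11.5.1.1, with background subtraction and detrending and no scaling across arrays; probe positions are mm9. The authors also deposited a table of log2 values, of unstated processing. Its columns (medians -3.78 to -3.67) followed the log2 processed intensity up to a constant per array in at least 99.96% of 25183 rows with 1 probe (tolerance 0.01), and it served as an alternative.

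Log2 processed intensity was averaged over repeated spots and each array's 75th percentile over the 56605 non-control probes was subtracted. Each member probe has 1 spot, and the scanner software's error was 10.0% to 13.6% of its signal. Probes well above background on both arrays of a group were tested (35214), with limma 3.58.1 in R 4.3.3 (lmFit, eBayes with trend, Benjamini-Hochberg over all tested probes, two-sided). The fit was tested on simulated data. Of the probes, 43738 took a RefSeq symbol. A gene is represented by its brightest tested probe.

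The members and the lists of other genes were chosen with earlier results of these data known. Named are all members, and of each list the tested genes with the highest level (up to 6) or largest difference (up to 3), and the 5 symbols closest in profile to Cxcl1 and to Cxcl12. The numbers of the replicates were checked for pairing. Differences between replicates of the 2 groups correlated at r = -0.38 across 32601 probes, which are not independent. This gave no ground for pairing arrays by equal number, but cannot show how the arrays were prepared. Alternatives were normexp (offset 50), quantile, median and spike-in scaling, no filter, no trend, the authors' table, each array left out, a replicate block, and averaging a gene's probes. A crossed block was added after seeing the data.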

Additional observations from a re-analysis of the deposited data

How the results depend on the processing

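The count of tested probes with a limma adjusted p under 0.05 was 4. It was 32 with normexp, 2 with quantile normalization, 0 with median scaling, 2 with no trend of the spread and 19 in the authors' deposited table. With an array left out it ran from 0 to 310, with 20 probes when empty vector 1 was left out and 310 when empty vector 2 was. The count of member probes was 0. It was 3 with normexp (Cxcl1, Cxcl5 and Ccl7) and 0 to 4 with an array left out, namely 1 without empty vector 1 (Cxcl5) and 4 without empty vector 2 (Cxcl1, Cxcl5, Ccl7 and Ccl20). The count of other listed genes was 0, and 0 to 5 with an array left out, the 5 without empty vector 2 being Ackr2, Acta2, Cd68, Cxcl10 and Cxcl17. A fit with an array left out has a lone array in a group, which is assumed to vary like the others. The cause of these changes was not tested. The replicate block gave 22 probes, 0 of them members and 0 other listed genes. The crossed replicate block, chosen after seeing the data, pairs empty vector 2 with Hdac6 vector 1 and gave 18 probes, 3 of them members.

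The median log2 fold change of the 8 tested members was 0.78. With an array left out it ran from 0.41 (without empty vector 1) to 1.29 (without empty vector 2), and under the other settings from 0.50 (normexp) to 0.88 (spike-in scaling). The median of all tested probes was 0.02, and -0.07 with median scaling and 0.13 with spike-in scaling. Cxcl1, Cxcl5, Cxcl12, Ccl2 and Ccl7 kept a positive sign under all 14 alternatives. Of these, no filter, no trend and both blocks leave the log2 fold change itself unchanged, so they could not change a sign. Averaging probes also leaves it unchanged for a gene with a single tested probe. For Cxcl1, Cxcl5, Cxcl12, Ccl2 and Ccl7 the groups did not overlap at the probe that stands for the gene. Leaving out an array could therefore not change their sign either. Ccl20 was negative without empty vector 1, Cx3cl1 positive without Hdac6 vector 1, and Ccl8 ran from -0.35 to 0.35. The number of arrays limits the precision, and Cxcl2 and Cxcl3 were at background.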
